A study of Homo sapiens with 14 samples.

Results

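The Th2 cytokine locus on the long arm of human chromosome 5 holds the genes of the T helper 2 cytokines IL5, IL13 and IL4, interleaved with RAD50, a subunit of a DNA double-strand break repair complex, and flanked by IRF1, an interferon-induced transcription factor, and KIF3A, a kinesin motor subunit. The locus was taken as the stretch chr5:132300001-132800000 (GRCh38), and its members are the peaks of the 14 deposited lists that lie there. It held 231 of the 273342 peaks kept on chromosomes 1 to 22 and X. Every library was made from Jurkat cells, a long-established leukaemic T cell line, by CUT&Tag, in which an antibody directs a transposase to cut and tag the DNA beside its target.

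The groups were SATB1 in cells infected with lentivirus carrying a control shRNA (shCtrl, 2 libraries), H3K27ac in shCtrl and in cells with an shRNA against SATB1 (shSATB1), 2 libraries each, and CTCF in shCtrl and shSATB1, 3 libraries each. Matrin 3 was profiled in 2 libraries whose labels name no shRNA. Nothing in the labels says that replicates were separate cultures, so the spread between libraries may be technical. No SATB1 list from shSATB1 cells was used here and peak lists do not measure SATB1 protein, so the knockdown was not checked. The study's title places the question at chromatin contacts around CTCF sites, and the comparison here is of the same locus in the shCtrl and shSATB1 lists.

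In T helper cells the cytokine genes of this locus are switched on together during Th2 differentiation, and a locus control region in the 3′ part of RAD50 takes part in that control. SATB1 is a nuclear protein that binds AT-rich DNA and is known for folding this locus into loops when Th2 cells are activated. CTCF marks insulators and loop anchors, H3K27ac marks active promoters and enhancers, and Matrin 3 is an RNA- and DNA-binding protein of the nuclear matrix. Jurkat cells are leukaemic and were not, by the labels, driven to a Th2 state.

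The T cell label was checked against marker genes. H3K27ac peaks lay within 2 kb of all 8 T cell marker genes (CD2, CD3D, CD3E, CD3G, CD28, CD7, LCK and BCL11B) in each of the 4 H3K27ac libraries. The same held for 1 of 6 B cell markers (CD79A), 0 of 6 myeloid markers and 1 of 6 erythroid markers (EPOR). Over all protein-coding genes the share was 45.8% in both shCtrl libraries and 43.4% in both shSATB1 libraries. The SATB1 lists shared the exact start of 13 of the 23 locus peaks of the shorter list (56.5%) and of 40.8% of all its peaks, against at most 1.03% for any other pair of lists, so they were counted as 1 sample and no spread is given. The Matrin 3 lists held 24596 and 2105 peaks, and CTCF lists covered 90.1 to 102.5 Mb of the genome in shCtrl and 24.5 to 40.8 Mb in shSATB1.

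The promoters of the members show where peak maxima fell and where they did not. The sequences below are 300-base RefSeq promoters (GRCh38.p14), read 5′ to 3′ on the gene's own strand, with 250 bases before the annotated start and 50 after it. Of the 6 member genes 5 matched an entry, and IL5 did not. IRF1 (chr5:132490724-132491023, minus strand), RAD50 (chr5:132556727-132557026, plus) and KIF3A (chr5:132737497-132737796, minus) are shown because peaks had their maxima there. Their capitals mark bases inside the deposited stretch of highest signal of at least 1 peak. Such stretches are not mapped binding sites and can differ between replicates. In RAD50 those of H3K27ac in shCtrl lay at bases 244 to 300 in replicate 1 and 70 to 84 in replicate 2.

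IRF1: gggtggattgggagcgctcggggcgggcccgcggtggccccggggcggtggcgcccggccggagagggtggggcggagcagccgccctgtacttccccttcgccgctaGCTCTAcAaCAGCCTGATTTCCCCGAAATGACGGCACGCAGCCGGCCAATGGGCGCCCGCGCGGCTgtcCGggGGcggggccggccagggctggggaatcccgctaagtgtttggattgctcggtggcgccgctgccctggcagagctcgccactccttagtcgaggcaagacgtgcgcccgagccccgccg
RAD50: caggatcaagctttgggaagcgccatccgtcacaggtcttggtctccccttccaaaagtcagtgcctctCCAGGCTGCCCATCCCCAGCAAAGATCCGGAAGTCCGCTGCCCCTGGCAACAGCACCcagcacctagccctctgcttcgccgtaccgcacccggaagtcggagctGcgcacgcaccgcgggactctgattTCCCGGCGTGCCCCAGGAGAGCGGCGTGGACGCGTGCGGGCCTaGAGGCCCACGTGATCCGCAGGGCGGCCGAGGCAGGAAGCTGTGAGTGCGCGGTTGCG
KIF3A: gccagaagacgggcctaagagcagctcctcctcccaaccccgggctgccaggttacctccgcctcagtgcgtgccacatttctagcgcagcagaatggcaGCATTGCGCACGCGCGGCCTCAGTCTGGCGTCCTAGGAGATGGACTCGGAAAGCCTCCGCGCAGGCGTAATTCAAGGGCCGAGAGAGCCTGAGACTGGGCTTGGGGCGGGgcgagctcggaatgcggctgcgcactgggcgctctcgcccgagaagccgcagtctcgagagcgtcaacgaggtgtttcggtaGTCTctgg

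IL4 (chr5:132673739-132674038, plus) and the later of the annotated IL13 starts (chr5:132657923-132658222, plus) are shown for contrast, because no list had a peak maximum in either. Their capitals mark matches to motifs of factors known in T helper cells, searched on both strands: AGATAA or TGATAA for GATA factors, TTCNNNGAA for STAT factors and GAAANNGAA for IRF factors. The IL13 window held no match.

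IL4: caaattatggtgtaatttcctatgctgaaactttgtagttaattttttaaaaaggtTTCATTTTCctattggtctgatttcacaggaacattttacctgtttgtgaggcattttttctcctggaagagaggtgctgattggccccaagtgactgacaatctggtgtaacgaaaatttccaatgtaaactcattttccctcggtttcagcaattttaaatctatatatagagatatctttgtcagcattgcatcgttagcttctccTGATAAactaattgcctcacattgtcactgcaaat
IL13: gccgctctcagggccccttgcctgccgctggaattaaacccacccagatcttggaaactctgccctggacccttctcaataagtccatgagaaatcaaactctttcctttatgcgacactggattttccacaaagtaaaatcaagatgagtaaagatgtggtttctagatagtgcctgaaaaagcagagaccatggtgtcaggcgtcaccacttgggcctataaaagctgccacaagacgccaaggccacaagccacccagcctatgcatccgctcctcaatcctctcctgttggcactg

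The IRF1 promoter was GC-rich (73.7% G or C, 36 CpG dinucleotides) and 13 of the 14 lists had a peak maximum in it, all but the shorter Matrin 3 list. RAD50 (66.7%, 27 CpG) held maxima of 8 lists and KIF3A (65.0%, 28 CpG) of 11. IL4 was AT-rich, at 35.3% G or C with 3 CpG, and the IL13 window shown stood at 50.3% with 6 CpG. The earlier annotated IL13 promoter (chr5:132656272-132656571) was richer than IRF1, at 76.3% with 37 CpG, and lay under no peak either. The median over 34961 promoters was 58.7% with 14 CpG. In the IRF1 promoter the stretches of highest signal of the 13 lists lay between bases 109 and 183, counted from its 5′ end. That interval holds a STAT match at bases 127 to 135, a motif found in 7.66% of all promoters.

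The IL4 promoter held the GATA match TGATAA at bases 266 to 271, found in 16.3% of promoters in either form, and an IRF match on the opposite strand at bases 57 to 65, found in 8.11%. CCCTC, the core of the CTCF motif, was also searched on both strands and was present in 71.3% of all promoters. IRF1, RAD50 and IL4 each held 1 match to it, and KIF3A and the IL13 window shown held none. KIF3A nevertheless lay under a CTCF peak in all 6 CTCF lists and IL4 in none. A match or its absence describes the letters of these windows only.

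Peaks were spread very unevenly along the locus. The stretch that holds CARINH, a long non-coding RNA gene beside IRF1, then IRF1 itself and the gap up to IL5, makes up 26.1% of the window. It held 77.0% ± 3.95 (SD, n = 2) of the H3K27ac cover of the locus in shCtrl and 75.4% ± 0.399 (n = 3) of the CTCF cover. In shSATB1 the shares were 80.7% ± 5.64 (SD, n = 2) and 76.1% ± 2.54 (n = 3), a difference from shCtrl within the spread of libraries (exact permutation p = 0.667 and 0.8, two-sided). For SATB1 the shares were 80.6% and 83.0% in its lists. Cover here is the length in the window that lies under peaks.

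**Figure D1:**
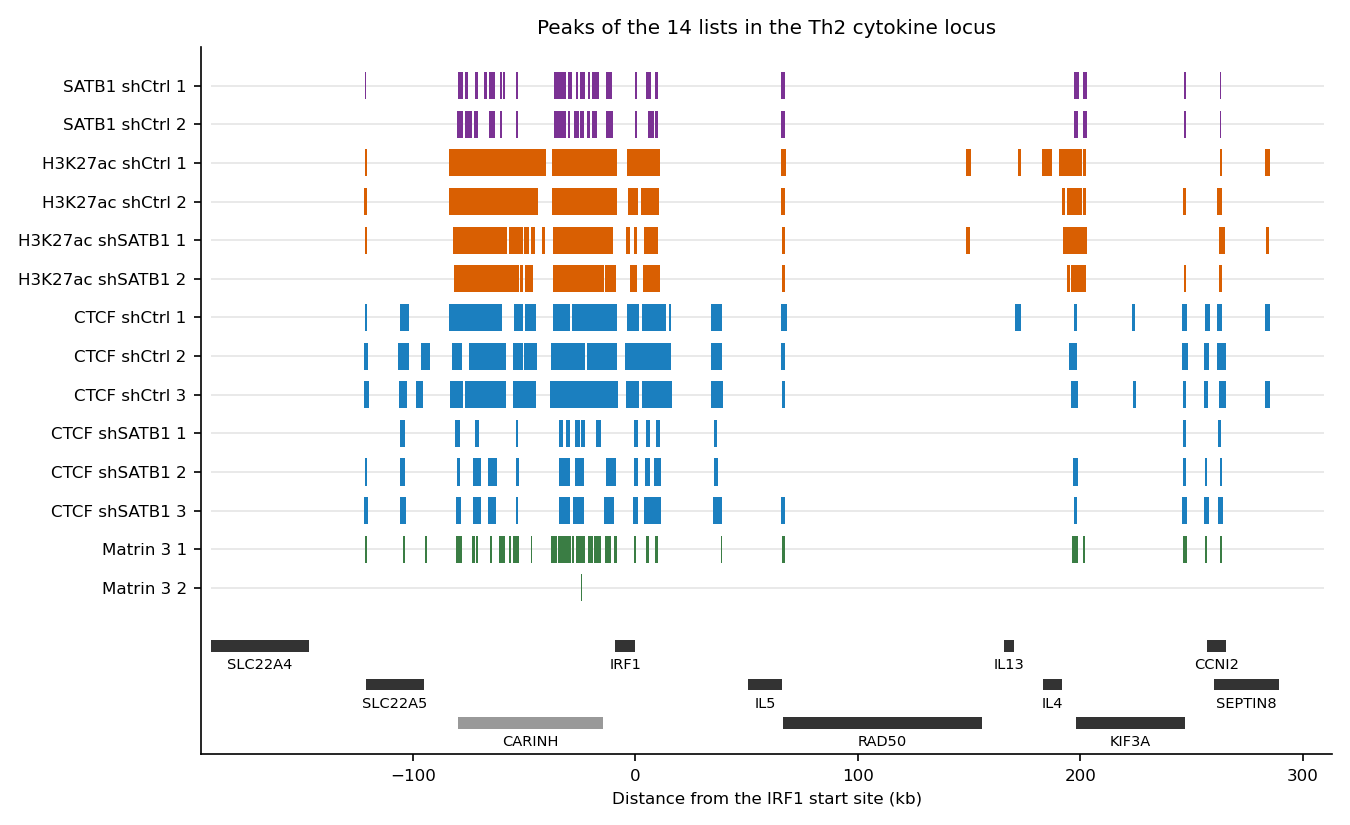
Peaks of the 14 lists (rows) drawn to scale as boxes along the locus, with the horizontal axis in kb from the IRF1 start site and protein-coding genes (dark bars) and CARINH (grey bar) below. Boxes crowd over CARINH and IRF1 in every list but the second Matrin 3 list, which has 1 peak, and the stretch from inside RAD50 to IL4 is nearly empty.

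SATB1 peaks numbered 25 and 23 in the locus and covered 41.2 and 40.5 kb of its 500 kb. They merged into 26 regions, of which 22 were in both lists. From the RAD50 start (region chr5:132556357-132557889) to the gap between IL4 and KIF3A (region chr5:132687631-132690007) neither list had a SATB1 peak. That stretch holds all of RAD50 past its start, all of IL13 and all of IL4.

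Of the 22 regions, 21 overlapped H3K27ac in both shCtrl lists (95.5%, against 74.8% of 13072 SATB1 regions genome-wide), and 21 overlapped CTCF in at least 2 shCtrl lists (95.5% against 70.0%). The longer Matrin 3 list overlapped 21 as well (95.5% against 82.9%). None of the 22 was free of all 3, where 9.42% of SATB1 regions genome-wide were. These are counts over neighbouring regions of 1 locus, given as a description with no test. An overlap of 1 bp was enough, so wide peaks raise these counts. In the stretch from CARINH to IL5, shCtrl peaks covered 63.9 and 59.4% for H3K27ac and 60.8, 64.2 and 65.6% for CTCF. CTCF was called in all 3 shSATB1 lists at 12 of the 22 (54.5%, against 39.2% genome-wide).

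Within its own lists the SATB1 signal of most locus peaks was not high, with a few exceptions. The median percentile of their maxima was 25.4 in replicate 1 and 48.5 in replicate 2. Each list had 9 locus peaks whose maximum signal lay above the list's median. The peak over chr5:132465795-132468013, inside CARINH, had a maximum at percentile 99.1 and 98.9 of its lists, and its total signal ranked 222 of 15226 and 284 of 14740. The peak at chr5:132692079-132693792, inside KIF3A, stood at percentiles 93.7 and 94.1. At the IRF1 start the percentiles were 92.0 and 89.2, and in the IL4 to KIF3A gap 90.1 and 84.2. At the RAD50 start they were 7.95 and 7.54.

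H3K27ac lay in wide domains. In shCtrl replicate 1 a single peak of 43.2 kb covered the 5′ part of CARINH (chr5:132407191-132450423), ranking 51 of 17909 peaks by total signal and 18 by width. A second peak of 29.2 kb (chr5:132453165-132482336) ran from CARINH to the 3′ end of IRF1 and ranked 15 by total signal. In shCtrl replicate 2 the corresponding peaks were 40.0 and 28.8 kb, ranking 53 and 16 of 17186. The 5′ domain was a continuous peak in both shCtrl lists. In shSATB1 the same stretch held 5 separate peaks in replicate 1, the widest 24.2 kb, and 3 in replicate 2, the widest 29.1 kb.

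Over the whole locus H3K27ac covered 112.4 and 97.2 kb in shCtrl and 92.3 and 84.0 kb in shSATB1. The libraries of the arms did not overlap. The means were 104.8 ± 10.8 and 88.1 ± 5.85 kb (SD, n = 2 each), so that 84.1% of the cover was kept (exact permutation p = 0.33, two-sided, the smallest that 2 against 2 allows). The difference of −16.7 kb became −9.05 kb without shCtrl replicate 1 (exact permutation p = 0.667) and −24.3 kb without shCtrl replicate 2 (0.33). The lists as a whole covered 17.2% less in shSATB1. The locus therefore made up nearly the same share of its list in both arms, 0.198% ± 0.0155 in shCtrl and 0.202% ± 0.00457 in shSATB1 (SD, n = 2 each; exact permutation p = 1), and without shCtrl replicate 2 the small difference turned to −0.00740 percentage points. Peaks in the locus numbered 12 and 11 in shCtrl and 15 and 12 in shSATB1.

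CTCF cover of the locus was 105.7, 110.6 and 113.5 kb in shCtrl and 26.8, 41.2 and 52.0 kb in shSATB1. Every shSATB1 library was below every shCtrl library. The means were 109.9 ± 3.94 and 40.0 ± 12.6 kb (SD, n = 3 each), with 36.4% kept (exact permutation p = 0.1, two-sided, the smallest that 3 against 3 allows). The lists as a whole covered 65.4% less, and the share of the list that lay in the locus was 0.115% ± 0.00409 in shCtrl and 0.120% ± 0.00909 in shSATB1 (SD, n = 3 each; exact permutation p = 0.5). With lists of equal length that difference became −0.0318 percentage points (exact permutation p = 0.1), a lower share in every shSATB1 library, so the locus share of the CTCF list depends on how the lists are made comparable. Library depth is unknown, and its part in the shorter CTCF lists was not tested.

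**Figure D2:**
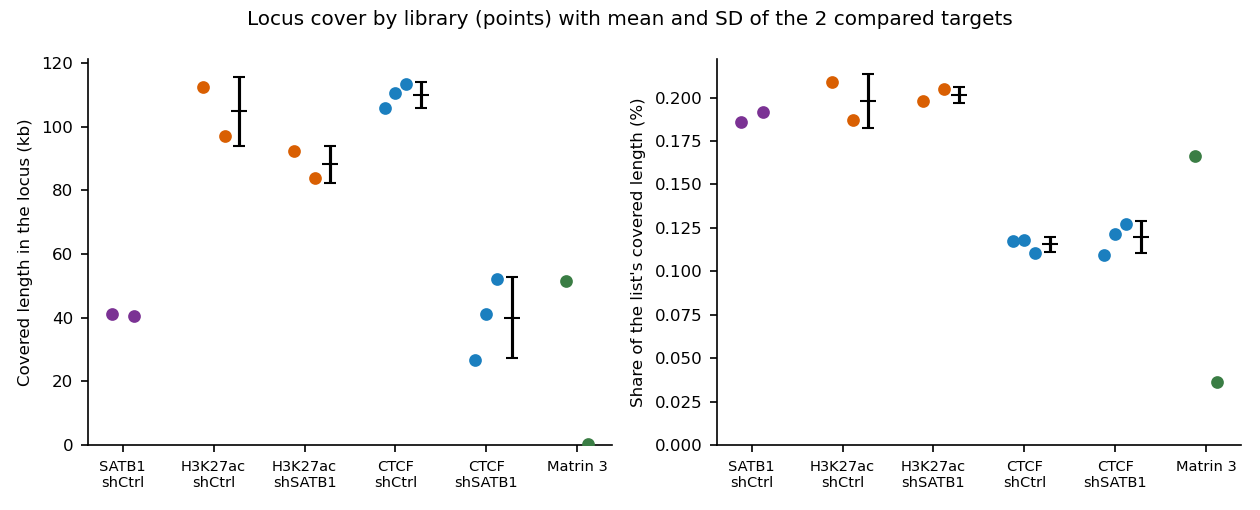
Covered length of the locus in kb (left) and the locus as a percent of all length covered by the list (right), 1 point per library, with mean and SD bars for H3K27ac and CTCF. CTCF falls from 109.9 to 40.0 kb between the arms while its share of the list stays at 0.115% and 0.120%.

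CTCF peaks in the locus were narrower in shSATB1, while their number stayed close. Whole CTCF lists kept 34.6% of their covered length and 55.7% of their peaks, so peaks were narrower on average across the lists too. The number of CTCF peaks in the locus was 19, 16 and 18 in shCtrl and 15, 17 and 17 in shSATB1 (exact permutation p = 0.4). The widest peak measured 24.1, 20.7 and 30.3 kb in shCtrl and 2.57, 5.07 and 7.74 kb in shSATB1, with no overlap. Over the stretch of the 30.3-kb peak, shSATB1 replicate 3 held separate peaks of 5.14, 5.16 and 4.57 kb. A close number of peaks therefore need not mean that the same sites were kept. The 30.3-kb peak, over the 3′ part of CARINH (chr5:132452547-132482875), was the fourth widest of the 32579 in its list, and the 20.7-kb peak reached from inside IRF1 across its start site (chr5:132485973-132506716).

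Merged over the 6 CTCF lists, the locus peaks formed 16 regions, and 8 were called in all 6. None was called in every shCtrl and no shSATB1 library, where 22.7% of all merged CTCF regions were, and none in the reverse, against 0.00879% of all. The lost count rose to 1 or 2 without any of the shCtrl replicates (2 without replicate 2) and to 1 without shSATB1 replicate 3. In bins of 1 kb, which follow width, 38 were lost and 0 gained. H3K27ac formed 12 regions, with 6 called in all 4 lists, 0 lost (5.95% of all regions) and 0 gained (2.62%). Here 2 were lost without shCtrl replicate 2 and 1 without shSATB1 replicate 1. Wide merged regions hold several peaks each, so a lost site inside one is not counted.

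Set among windows of 500 kb laid end to end across the genome in register with it, the locus was densely covered. H3K27ac covered more of it in shCtrl than of 99.4% of 3859 windows with any H3K27ac peak (median 7.77 kb), and 23 windows held more. For CTCF the figures were 98.8% of 4276 windows (median 13.3 kb), with 50 above. SATB1 covered more than in 99.3% of windows in each list, and the longer Matrin 3 list more than in 99.6%. In the shorter Matrin 3 list, with its 1 locus peak, 22.6% of windows with a peak lay below the locus and 1038 above it. Lower cover in shSATB1 was common among the windows. CTCF was lower in every shSATB1 than in every shCtrl library in 91.6% of windows and higher in 0.0%, and for H3K27ac the shares were 52.7% and 7.15%. The locus kept 36.4% of its CTCF cover beside a median of 28.8% (quartiles 14.7 and 39.7%) and 84.1% of its H3K27ac cover beside 81.3% (66.4 and 94.98%), within the middle range of windows for each. Most of those windows held far less cover than the locus, and windows of like cover were not set apart. By mean CTCF cover, 50 windows lay above the locus in shCtrl and 108 in shSATB1, and by H3K27ac cover 23 and 22.

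**Figure D3:**
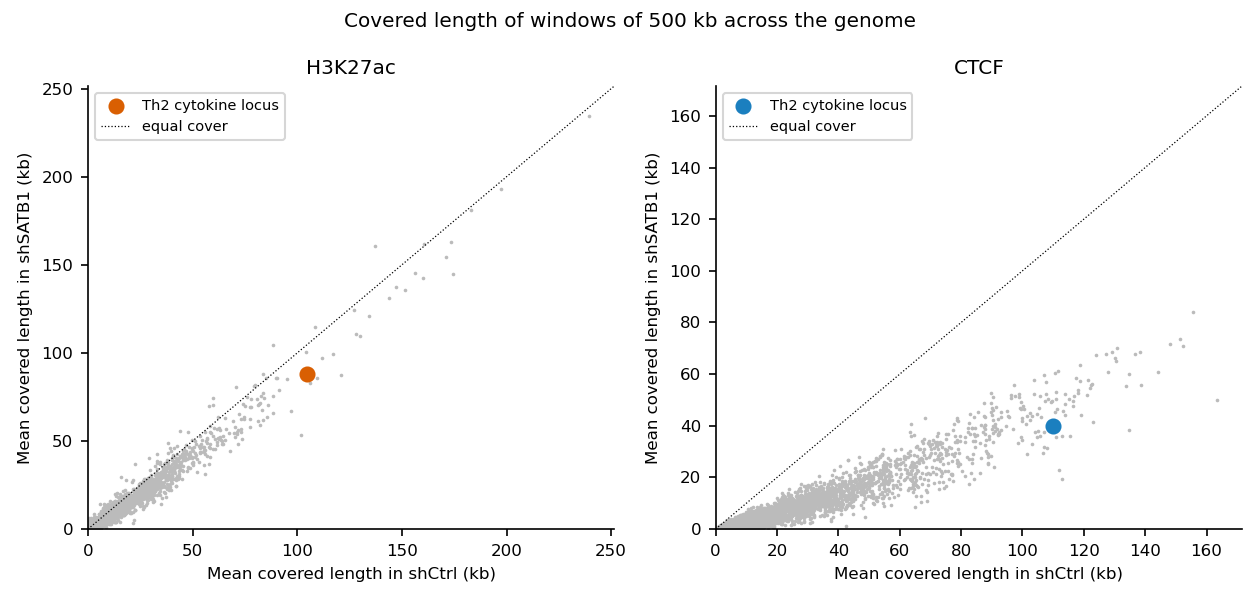
Mean covered length in kb of windows of 500 kb in shCtrl (horizontal) and shSATB1 (vertical) for H3K27ac and CTCF, with the locus as a coloured point and a dotted line of equal cover. The locus lies far to the right, at 104.8 and 109.9 kb, and within the cloud of other windows, which for CTCF lies almost wholly below the line.

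Among the member genes, taken with 2 kb on each side, CTCF was lower without overlap at 2 of 6, IRF1 and KIF3A, and higher at 0. The background is 81.8% of 14173 genes with any CTCF peak lower and 0.0212% higher, and 5 of the 6 members had any. H3K27ac was lower without overlap at 2 of 6, IRF1 and IL5, and higher at 0, where 37.1% of 10525 genes were lower and 7.17% higher. The IL5 call rests on the peak at the RAD50 start, which the RAD50 window also holds, and RAD50 was not called lower. Leaving out shCtrl replicate 3 raised the CTCF count to 4, as did leaving out shSATB1 replicate 3. The H3K27ac count became 5 when shCtrl replicate 2 was left out and 4 when shSATB1 replicate 1 was. With CTCF lists of equal length 1 member was lower. Of the 10 protein-coding genes that reach into the window, CTCF was lower at 6, which adds SLC22A4, SLC22A5, CCNI2 and SEPTIN8, and H3K27ac at 3, which adds SLC22A4. The SLC22A4 peaks lie just outside the window.

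IRF1 was the most fully covered member. H3K27ac covered 8.49 and 7.18 kb of its 13.2-kb window in shCtrl and 4.09 and 5.53 kb in shSATB1. CTCF covered 8.26, 9.70 and 9.22 kb in shCtrl and 1.60, 4.41 and 3.91 kb in shSATB1. For neither did the arms overlap, and the means were 7.83 ± 0.927 and 4.81 ± 1.01 kb for H3K27ac (SD, n = 2 each) and 9.06 ± 0.731 and 3.31 ± 1.50 kb for CTCF (SD, n = 3 each). SATB1 covered 1.38 and 1.75 kb there and the longer Matrin 3 list 2.65 kb.

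The start site of IRF1 kept a CTCF peak in every list. The percentiles of its maximum signal were 93.0, 93.9 and 93.9 in the CTCF shCtrl lists and 92.0, 86.1 and 91.3 in the shSATB1 lists. H3K27ac stood at 96.4 and 96.3 in shCtrl and 97.3 and 93.6 in shSATB1, and Matrin 3 at 97.7 in the longer list. The start of IRF1 thus ranked in the upper part of every list that called it.

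IL5 and RAD50 share their cover. The RefSeq span of IL5, the eosinophil growth and survival factor, ends 0.161 kb before that of RAD50 begins, and the peak at the RAD50 start lies over both ends. Of the 15.4-kb IL5 span at most 0.659 kb lay under peaks in any list, all of it at that end. H3K27ac covered 2.21 and 1.65 kb of the IL5 window in shCtrl and 1.62 and 1.28 kb in shSATB1, with no overlap between the arms. CTCF covered 2.60, 1.68 and 1.50 kb in shCtrl and 0.0, 0.0 and 1.66 kb in shSATB1. Of the shSATB1 libraries replicate 3 alone called the CTCF peak, at percentile 10.0, and its width lay within the shCtrl range. SATB1 covered 1.53 kb in each list.

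Inside RAD50 there was little else. H3K27ac in replicate 1 of each arm had a second peak near the 3′ end of the gene, where the non-coding gene TH2LCRR overlaps it. That peak measured 2.17 kb in shCtrl (chr5:132639350-132641519, percentile 15.8) and 1.91 kb in shSATB1 (chr5:132639418-132641330, percentile 29.3). No replicate 2 list called it, and no SATB1, CTCF or Matrin 3 list had a peak there. The H3K27ac cover of the RAD50 window was 4.38 and 1.65 kb in shCtrl and 3.53 and 1.28 kb in shSATB1, so the replicates differed more than the arms.

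IL13, which drives mucus production and airway responses in allergic inflammation, had no peak over its gene body in any of the 14 lists, nor at either of its annotated promoters. The gap from RAD50 to IL13 was equally empty. Within 2 kb of the gene, H3K27ac shCtrl replicate 1 covered 0.515 kb and CTCF shCtrl replicate 1 covered 1.56 kb, both downstream, and the other 12 lists were at 0. Promoters lay under H3K27ac peaks in 27.1 to 29.9% of cases and under CTCF peaks in 25.5 to 42.5%, across the lists.

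IL4, the cytokine that directs Th2 differentiation and class switching to IgE, differed between replicates. H3K27ac covered 7.73 and 1.31 kb of its window in shCtrl and 1.92 and 0.0 kb in shSATB1. The arms overlapped. Over the gene body alone it was 5.33 and 0.071 kb in shCtrl and 0.0 kb in each shSATB1 library. There the arms did not overlap, by the 0.071 kb of shCtrl replicate 2. In shCtrl replicate 1 a 4.36-kb peak over the promoter and first part of the gene (chr5:132673583-132677938) had its maximum at percentile 3.79 of its list, so it was wide and low. No other list had a peak at the IL4 promoter. SATB1, CTCF and Matrin 3 lists were at 0 over the whole IL4 window.

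Downstream of IL4 the picture changed within a few kb. The gap of 6.13 kb between the 3′ ends of IL4 and KIF3A was covered by H3K27ac for 6.13 and 5.37 kb in shCtrl and 6.06 and 3.16 kb in shSATB1. An element there (chr5:132687970-132688539) held the peak maximum of 12 lists. H3K27ac stood at percentiles 97.0 and 96.6 in shCtrl and 94.4 and 96.6 in shSATB1, and Matrin 3 at 90.0 in the longer list. CTCF stood at 64.4, 56.0 and 63.1 in shCtrl, with 22.2 and 38.6 in shSATB1 replicates 2 and 3 and no peak in replicate 1.

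At KIF3A, CTCF covered 5.34, 5.17 and 5.80 kb of the window in shCtrl and 1.36, 3.15 and 3.60 kb in shSATB1, with no overlap (5.44 ± 0.329 and 2.70 ± 1.18 kb, SD, n = 3 each). H3K27ac did not fall there. It covered 5.59 and 7.14 kb in shCtrl and 6.68 and 7.38 kb in shSATB1, and the arms overlapped. Over the gene body alone it was 3.59 and 4.42 kb in shCtrl and 4.68 and 4.80 kb in shSATB1, higher in both shSATB1 libraries. The share of all gene bodies that were higher was not counted. In every H3K27ac list a peak ran across the 3′ end of the gene into the gap. Over the gap and gene body joined, H3K27ac covered 9.72 and 9.79 kb in shCtrl and 10.7 and 7.96 kb in shSATB1, and the arms overlapped. The SATB1 peak inside the 3′ part of KIF3A had no CTCF peak in any list. In shCtrl it lay on an H3K27ac peak of its own, 1.08 and 1.06 kb wide, and in shSATB1 that stretch was joined to the wide H3K27ac peak of the gap, 10.7 and 6.73 kb. SATB1 covered 5.0 and 4.6 kb of the KIF3A window and the longer Matrin 3 list 5.14 kb.

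**Figure D4:**
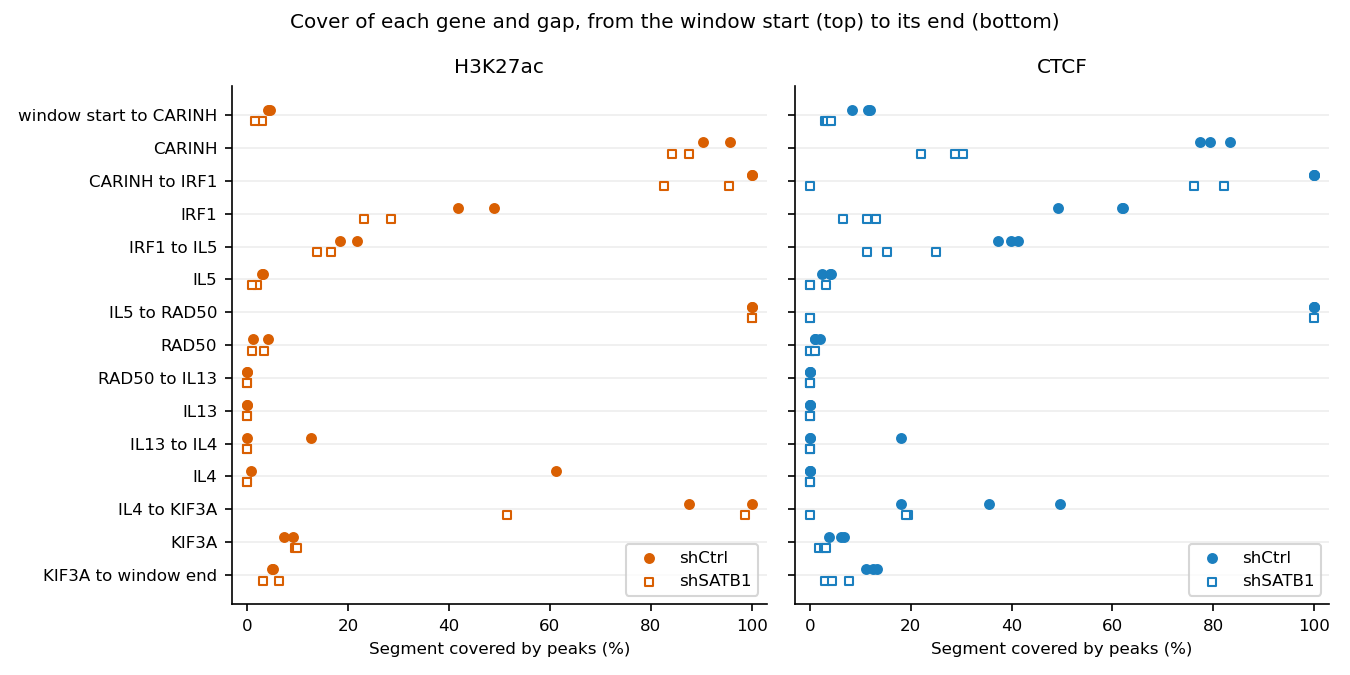
Percent of each gene body and gap of the locus covered by H3K27ac (left) and CTCF (right) peaks, 1 mark per library, with filled circles for shCtrl and open squares for shSATB1. CTCF marks part widely at CARINH and IRF1, H3K27ac marks stay close at CARINH, and RAD50 to IL13 and IL13 lie at 0 in every library.

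Over CARINH the marks differed in how much cover was kept, as they did over whole lists (82.8% for H3K27ac and 34.6% for CTCF). H3K27ac covered 62.4 and 58.8 of its 65.1 kb in shCtrl and 57.1 and 54.8 kb in shSATB1, so that 92.3% was kept. CTCF covered 50.4, 51.6 and 54.2 kb in shCtrl and 14.4, 18.8 and 19.7 kb in shSATB1, so that 33.9% was kept. In both marks every shSATB1 library was below every shCtrl library. That also held in 52.7% of the 500-kb windows genome-wide for H3K27ac and 91.6% for CTCF. At the IRF1 gene body CTCF kept 17.9% and H3K27ac 57.0%, and the shares kept over all gene bodies were not computed.

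To follow sites rather than widths, windows of 500 bp on the maxima of all peaks were merged into elements, 61 in the locus and 58464 genome-wide. A peak of at least 13 lists lay on 15 of the 61 (24.6%), against 8.34% genome-wide. Wide peaks raise that count, since 1 peak can lie on many elements. A single element (chr5:132466137-132466893, inside CARINH) held the maximum of all 14 lists. An element shared in this way was as frequent in the locus (1.64%) as elsewhere (1.74%). It is the site of the highest SATB1 peak of the locus, and the 1 locus peak of the shorter Matrin 3 list lies in it (chr5:132466361-132466817, percentile 66.0).

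At that element H3K27ac stood at percentile 99.9 in all 4 lists. CTCF stood at 83.4, 78.5 and 83.8 in shCtrl and at 43.8, 56.4 and 67.6 in shSATB1, lower within its own list in each shSATB1 library. The IRF1 start differed from it in keeping a high CTCF rank. Percentiles are taken within lists of different length, so a lower one is a place in its list and not a measured loss.

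CTCF also had sites without SATB1. The element at chr5:132386331-132386958, inside SLC22A5, a carnitine transporter gene, had CTCF at 91.6, 92.5 and 91.3 in shCtrl and 80.6, 88.9 and 86.4 in shSATB1, with no SATB1 or H3K27ac peak. The element at chr5:132526494-132527189, between IRF1 and IL5, had CTCF alone, at 68.1, 64.4 and 65.0 in shCtrl and 37.1, 19.1 and 50.5 in shSATB1. These sites lie on either side of CARINH and IRF1, and both were called in all 6 CTCF lists.

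**Figure D5:**
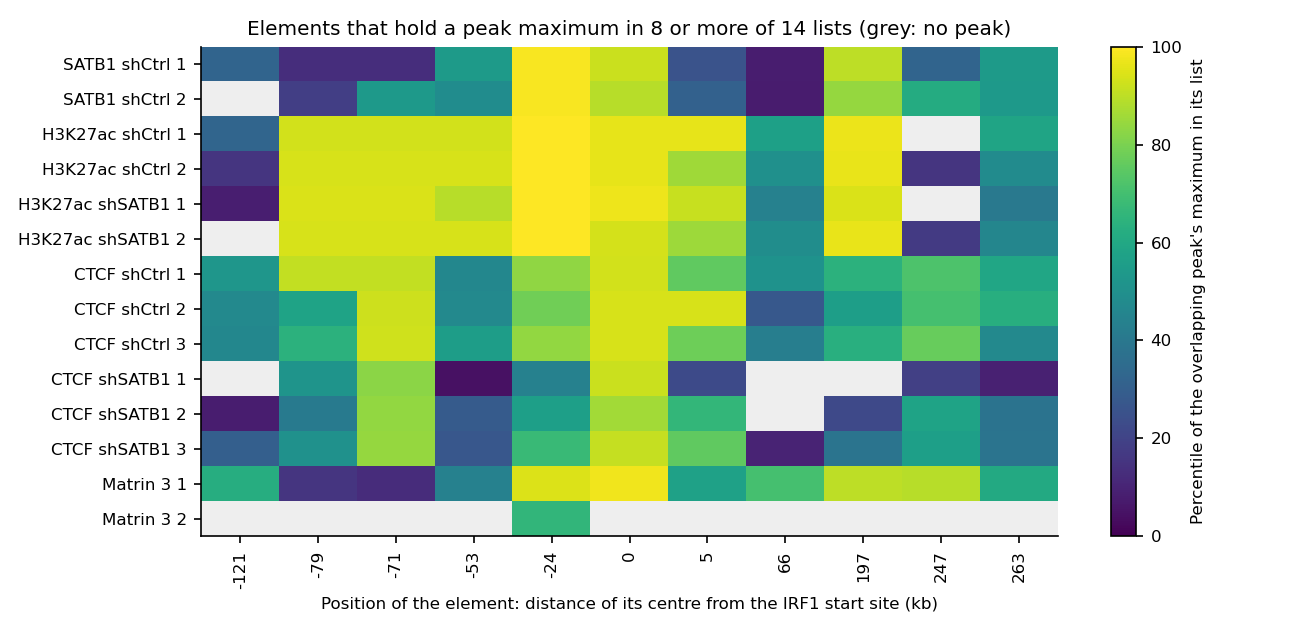
Percentile, within its own list, of the maximum signal of the peak that overlaps each of the 11 elements that held a peak maximum in at least 8 of 14 lists (columns, by distance from the IRF1 start site in kb; rows are lists; grey means no peak). Only the element at chr5:132466137-132466893, inside CARINH, has a value in every list. H3K27ac rows are bright at the elements inside CARINH, at and beside the IRF1 start, and in the IL4 to KIF3A gap.

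Other genes of the Th2 programme were set beside the locus from a fixed list of 24. CTCF lay at 18 of the 24 in every shCtrl library and at 12 in every shSATB1 library (beside 66.5% and 45.1% of all protein-coding genes). H3K27ac lay at 16 in both shCtrl libraries and 14 in both shSATB1 libraries (66.7% and 58.3%, against 45.8% and 43.4%). SATB1 lay at 9 in both lists (37.5% against 33.4%). CTCF cover was lower without overlap at 18 and H3K27ac cover at 9, and neither was higher at any. That is 18 of the 19 genes with any CTCF peak, beside 81.8% of all genes with one, and 9 of the 18 with any H3K27ac peak, beside 37.1%. No test was made of these shares.

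GATA3, the master regulator of Th2 cells, kept its H3K27ac, at 9.86 and 9.52 kb in shCtrl and 9.37 and 9.77 kb in shSATB1. CTCF there covered 9.87, 9.63 and 9.58 kb in shCtrl and 2.44, 3.88 and 6.69 kb in shSATB1. CCR4, a chemokine receptor of Th2 cells, had H3K27ac of 2.27 and 2.77 kb in shCtrl and CTCF of 3.90, 3.47 and 4.55 kb. No shSATB1 library had a peak of either there. CCR4 does not stand for the list, of which 12 genes had CTCF in every shSATB1 library and 14 had H3K27ac in both. At IL10, H3K27ac covered 5.76 and 4.98 kb in shCtrl and 4.10 and 2.90 kb in shSATB1, and CTCF covered 5.26, 7.40 and 5.70 kb in shCtrl and 0.0 kb in each shSATB1 library. IL9, IL31, IL1RL1 and IRF4 had no peak in any list.

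Of 15 genes of the opposing Th1 programme, CTCF was lower without overlap at 7 of the 10 with any CTCF peak and H3K27ac at 2 of the 7 with any H3K27ac peak, beside the same 81.8% and 37.1%. IFNG, the Th1 cytokine, had no peak in any list. STAT4, which relays IL12 signals, had H3K27ac of 4.76 and 6.19 kb in shCtrl and 5.24 and 2.33 kb in shSATB1, with overlap between the arms. Its CTCF cover was 5.60, 5.87 and 6.85 kb in shCtrl and 0.0, 1.16 and 0.0 kb in shSATB1. Of 12 neighbouring genes on chromosome 5 outside the window, CTCF was lower at 9 of the 10 with any CTCF peak and H3K27ac at 5 of the 6 with any H3K27ac peak, beside 81.8% and 37.1%. Among them GDF9 and UQCRQ overlap and had the same cover in every list, so the same peaks were counted for each gene in both tallies. The cytokine gene CSF2 had no peak in any list, and its neighbour IL3 had no SATB1 or H3K27ac peak.

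By mean absolute difference in percent of gene window covered over the 14 lists, the gene nearest to IRF1 was MORN3 (5.10 percentage points), followed by BTBD19 and TBC1D10A (5.57 and 5.59). All 3 were covered in the same 13 lists as IRF1. For RAD50 the nearest were RFC1, FAM169A and CSTF3 (0.498 to 0.532 points), for KIF3A EXTL2, CETN3 and SLC40A1 (1.14 to 1.37) and for IL5 MRPS14, DR1 and RANBP9 (1.47 to 1.70). IL13 and IL4 had cover in 2 and 3 lists, so their nearest genes, PEA15, FDX2 and GAL (0.489 to 0.577) and VSIG10L2, KRTAP12-4 and ZNF619 (4.12 to 4.15), are chiefly genes that are nearly empty too. These are descriptions over lists that share their library preparation, and carry no test.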

How the data were processed

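CUT&Tag peak lists of 14 libraries were used as deposited. The submitters' processing notes name SEACR, Bowtie2, Trim Galore, deepTools and SAMtools for all samples, MACS2 for all targets except Matrin 3, and the build GRCh38. Versions, filters and control libraries are not given in the sources used here. A threshold of 0.007 stands in the SATB1 file names. The deposited values are the authors' total and maximum signal of each peak, whole numbers with no scaling recorded. They were used only to rank or filter peaks within their own list. Read depth is unknown, so no value was corrected for it, and it may set how wide and how many the called peaks are.

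Lists were called per library. Of 273747 peaks, 405 lay outside chromosomes 1 to 22 and X and were left out. Peaks were clipped to the window, and peaks of a target were merged where they shared at least 1 bp. A percentile is the place of a peak's maximum signal in its list, with ties averaged. Elements were merged windows of 500 bp on peak maxima. A gene was its RefSeq GRCh38.p14 span with 2 kb on each side, and a gene or window was called lower or higher where the libraries of the arms did not overlap. Arms were compared by two-sided exact permutation tests over libraries, which give at least p = 0.1 for CTCF (3 against 3) and p = 0.33 for H3K27ac (2 against 2) and so cannot pass 0.05.

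The members and the gene lists were chosen with earlier results of these data known. Named genes were the members, the protein-coding genes that reach into the window, members of the Th2, Th1 and neighbour lists that every library of a target called or that differed without overlap, and the 3 genes nearest to each member. Not every list gene that met this rule is named, and those given with values were not picked by a fixed rule. Genes of those lists named for having no peak, among them IFNG, IL9 and CSF2, were chosen after their values were seen. The gene table gives no strand, which was taken from the promoter table. The scripts were tested on simulated data. Positions are 1-based. Python 3.11.15, numpy 2.4.6, pandas 2.3.3 and matplotlib 3.10.9 were used. Alternatives were equal list lengths, a stricter threshold (the lowest 25% of each list by total signal left out), windows on the maxima, bins of 1 kb, other gene windows, the replicate number as a block, and each library left out.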

Additional observations from a re-analysis of the deposited data

How the results depend on the processing

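The difference in CTCF cover of the locus was −57.7 kb with lists of equal length and ranged from −75.9 to −63.3 kb with a library left out. That of H3K27ac ranged from −24.3 to −9.05 kb with a library left out. Windows of 500 bp on the peak maxima give every peak the same length and so follow the number of peaks. There the differences were −0.667 kb for CTCF (exact permutation p = 0.4) and 1.00 kb for H3K27ac, which do not measure the fall in cover. The difference in the locus share of the CTCF list turned to −0.0318 percentage points with lists of equal length (exact permutation p = 0.1), was 0.0378 in windows on the maxima (0.1), and lay between 0.000248 and 0.00915 with a library left out. That of H3K27ac lay between −0.00740 (without shCtrl replicate 2) and 0.0146. Lost CTCF regions numbered 2 with a stricter threshold, 38 in bins of 1 kb and 0 to 2 with a library left out. Lost H3K27ac regions numbered 1 in windows on the maxima, 6 in bins and 0 to 2 with a library left out, and 1 was gained in windows on the maxima and 1 in bins. Members with lower CTCF numbered 1 with equal list lengths and 2 to 4 with a library left out, and members with lower H3K27ac 2 to 5. With gene bodies alone the counts were 2 for CTCF and 3 for H3K27ac. SATB1 covered 32.4 kb with the stricter threshold and 12 kb in windows on the maxima, both lengths shorter by construction. For the other changes the cause was not tested.

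Over regions called in all libraries, same-numbered libraries of the arms did not deviate together (correlations of −0.0119 to 0.00964), and no label pairs them. Regions called in only some libraries lie outside that measure. In the locus, H3K27ac regions chr5:132639350-132641519 and chr5:132773831-132775956 were called in replicate 1 of each arm alone. The H3K27ac region chr5:132736642-132738269 was called in replicate 2 of each arm alone, and no other locus region split this way. With the replicate number as a block the mean differences were −69.9 kb for CTCF and −16.7 kb for H3K27ac, and 0.00417 and 0.00358 percentage points for the shares (exact sign-flip p = 0.25, 0.5, 0.75 and 1, where 3 pairs cannot go below 0.25 and 2 pairs below 0.5). Unknown depth limits all comparisons of cover between arms.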
